A study of Danio rerio with 6 samples.

Results

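The genes described are aplnra (NCBI Gene 561935), aplnrb (Gene 565492) and gpr182 (Gene 323641), which encode 3 G protein-coupled receptors of angioblasts and early vessels in the zebrafish. They were chosen by name, and the 3 of them were found among the 2471 genes analysed. Sorted kdrl+ endothelial cells of 22 hpf embryos (hpf, hours after fertilization) gave 3 NFKB+ and 3 NFKB- RNA libraries, from about 7000 cells each. All embryos carried the reporters NFKB:d2eGFP, in which an NF-kB responsive element drives a destabilized green fluorescent protein, and kdrl:mCherry, in which the promoter of the VEGF receptor gene kdrl drives mCherry. Cells came from dissected trunks, so heads are not represented. The NFKB+ sort held kdrl+ cells with green fluorescence and the NFKB- sort held kdrl+ cells without it. NF-kB itself was not perturbed, and no treatment or mutation separates the sorts. The comparison bears on what distinguishes NF-kB-active kdrl+ cells while hematopoietic stem and progenitor cells are being specified.

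Apelin receptors are 7-transmembrane receptors for the secreted peptides Apelin and Apela (also called Toddler or Elabela). They signal through inhibitory G proteins and are taken up with the help of beta-arrestins. In zebrafish, aplnra and aplnrb are the duplicated genes of this receptor, are used by mesendodermal cells and heart precursors during gastrulation, and are transcribed in angioblasts, which migrate to the midline to build the first axial vessels. Gpr182 is a relative of chemokine receptors found on endothelium. In mouse and human it binds several chemokines, CXCL12 among them, and removes them without the usual G protein signal. It was once proposed as a receptor of the peptide adrenomedullin.

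The deposited values are log2(normalized reads + 1) per library, and the table had been limited by the authors to genes that differed at least 2-fold at adjusted p 0.01 between these same sorts. Each gene analysed had therefore already passed a comparison of these libraries, and the adjusted p-values below are descriptions of a selected table and no independent evidence of a difference. The reads recovered for the 2471 genes came to between 8393821 and 15165090 per NFKB+ library and between 11129942 and 14020673 per NFKB- library. Erythroid markers made up 7.88% to 9.14% of the table's normalized reads in NFKB+ libraries and 41.2% to 47.5% in NFKB- libraries. The sorts thus differed in blood transcripts as well as in reporter fluorescence. In such bulk samples, fewer cells of a type and less RNA per cell cannot be told apart.

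Both apelin receptor genes were several times higher in the NFKB+ than in the NFKB- sort of kdrl+ cells. The aplnra transcript was counted at 35075, 30535 and 31261 normalized reads in NFKB+ libraries 1, 2 and 3, against 6760, 5102 and 4222 in NFKB- libraries 4, 5 and 6. The lowest NFKB+ library stood 2.18 log2 units above the highest NFKB- library. On the log2 scale NFKB+ libraries averaged 14.98 ± 0.11 and NFKB- libraries 12.36 ± 0.34 (SD, n = 3 each). The difference was 2.61 with a standard error of 0.14, which is 6.13-fold with a 95% interval of 4.96 to 7.56 (limma adjusted p = 2.91e-10).

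The duplicate aplnrb was counted at 38244, 37380 and 38620 normalized reads in NFKB+ libraries, against 9763, 7069 and 6824 in NFKB- libraries. Its NFKB+ libraries were almost level, while NFKB- library 4 stood above libraries 5 and 6. The NFKB+ libraries averaged 15.22 ± 0.024 and the NFKB- libraries 12.93 ± 0.28 on the log2 scale (SD, n = 3 each). The difference of 2.29 had a standard error of 0.13, or 4.89-fold with a 95% interval of 4.05 to 5.91 (limma adjusted p = 3.82e-10). The sources used here do not say how reads that match both duplicates were assigned.

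The chemokine receptor relative gpr182 was higher in NFKB+ cells too. It was counted at 72993, 69807 and 67158 normalized reads in NFKB+ libraries, against 19522, 15916 and 14037 in NFKB- libraries. Each NFKB+ library held more than 3 times the reads of any NFKB- library. Log2 levels averaged 16.09 ± 0.060 in NFKB+ and 14.00 ± 0.24 in NFKB- libraries (SD, n = 3 each). The difference of 2.098 had a standard error of 0.13, or 4.28-fold with a 95% interval of 3.56 to 5.15 (limma adjusted p = 7.14e-10).

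**Figure D1:**
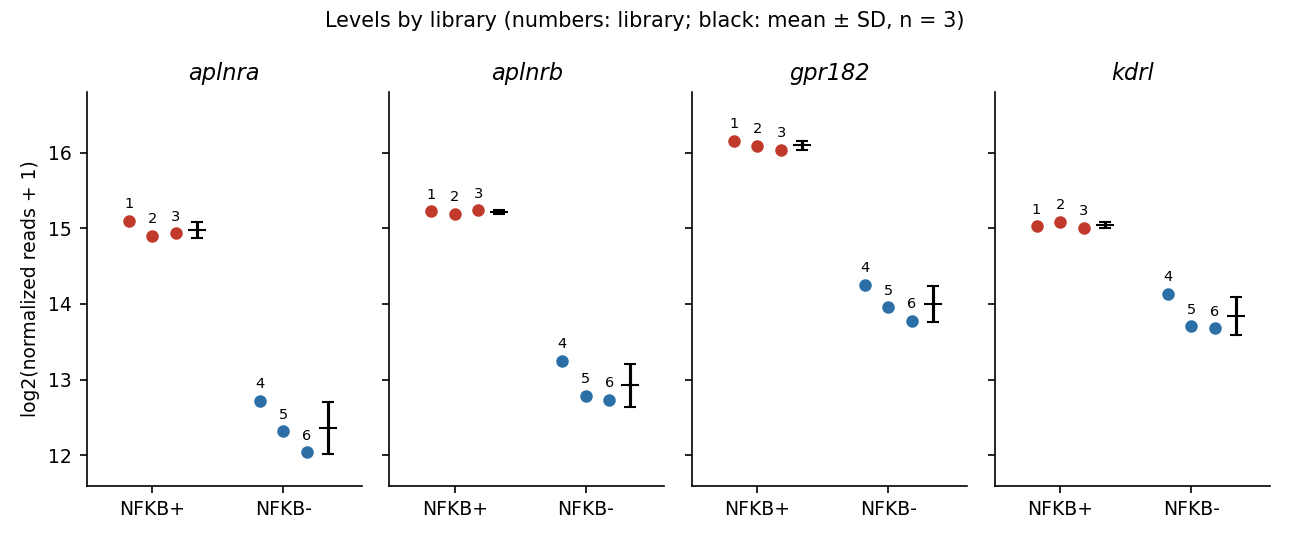
Levels of aplnra, aplnrb, gpr182 and, for comparison, kdrl as log2(normalized reads + 1), with 1 point per library, NFKB+ on the left and NFKB- on the right of each panel. Numbers name the libraries and black marks give the mean ± SD of 3 libraries. The sorts overlap in no panel, as for 99.6% of all genes analysed, and library 4 is the highest NFKB- library in each panel.

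The 3 receptors were higher in NFKB+ cells, in a table where 54.5% of the genes were called higher and 45.5% lower. Their groups did not overlap between the sorts, as was the case for 99.6% of the table. All 3 were 4-fold or more higher, as were 233 of all 2471 genes (9.43%). The table's median log2 difference was 1.08, and its 1347 higher genes reached up to 6.90. Ordered by size, aplnra was number 71, aplnrb number 142 and gpr182 number 200 of these. Counting error was small beside the spread between libraries, since the fewest reads recovered for any of the receptors, 3875 for aplnra in library 6, carry an error of 1.61%. In the authors' deposited table the log2 fold changes were 2.57 for aplnra, 2.26 for aplnrb and 2.07 for gpr182, and their adjusted p-values were written as 0. Under scaling by the median ratio over the table, which moved the median of all genes by -0.88, the differences were 1.73, 1.41 and 1.22, or 3.33-, 2.66- and 2.33-fold.

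The excess was largest for aplnra and smallest for gpr182. Ratios within a library do not depend on how libraries are scaled, so they were compared directly. The log2 ratio of aplnra to aplnrb was -0.12, -0.29 and -0.31 in NFKB+ libraries, against -0.53, -0.47 and -0.69 in NFKB- libraries. The shift was 0.32, a factor of 1.25, with aplnra having the larger excess of the duplicates. The 9 differences between single NFKB+ and NFKB- libraries ran from 0.17 to 0.57. The ratio of aplnra to gpr182 shifted by 0.52, with library differences between 0.34 and 0.68. That of aplnrb to gpr182 shifted least, by 0.19, with library differences between 0.07 and 0.37. The sorts did not overlap for any of the 3 ratios, and the share of other gene pairs without overlap was not computed. Each had p = 0.1 in a two-sided exact permutation test, also after adjustment over the 3, and this is the smallest value that this test can give for 3 against 3 libraries.

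Set against kdrl, whose promoter gated both sorts, the receptors had higher ratios in each NFKB+ library than in any NFKB- library. The kdrl transcript (Gene 796537) had a mean log2 level of 15.04 ± 0.041 in NFKB+ and 13.84 ± 0.26 in NFKB- libraries (SD, n = 3 each), a difference of 1.2 (limma adjusted p = 2.07e-07). Of the 1347 genes higher in NFKB+ cells, 77.4% had a larger difference than kdrl, so a positive shift relative to kdrl was common in the table. The log2 ratio of aplnra to kdrl was 0.07, -0.19 and -0.08 in NFKB+ libraries, against -1.41, -1.39 and -1.64 in NFKB- libraries. Relative to kdrl, aplnra was thus 2.67-fold higher in NFKB+ cells. The ratio of aplnrb to kdrl was 0.20, 0.10 and 0.23 in NFKB+ libraries, against -0.88, -0.92 and -0.94 in NFKB- libraries, a 2.13-fold shift. For gpr182 the ratio was 1.13, 1.00 and 1.03 in NFKB+ libraries, against 0.12, 0.25 and 0.10 in NFKB- libraries, a 1.86-fold shift. Against the mean log2 value of the 15 pan-endothelial genes analysed, the shifts were 2.1-fold for aplnra, 1.68-fold for aplnrb and 1.47-fold for gpr182. None of these 6 ratios overlapped between the sorts, and each had the smallest possible p of 0.1 (two-sided exact permutation test, 3 against 3 libraries). How often such ratios of other genes overlap was not computed. In level, 99.6% of the table's genes did not overlap, and the 15 pan-endothelial genes had passed the authors' limits as well. The ratios to kdrl and to the pan-endothelial mean were chosen after the data had been seen.

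**Figure D2:**
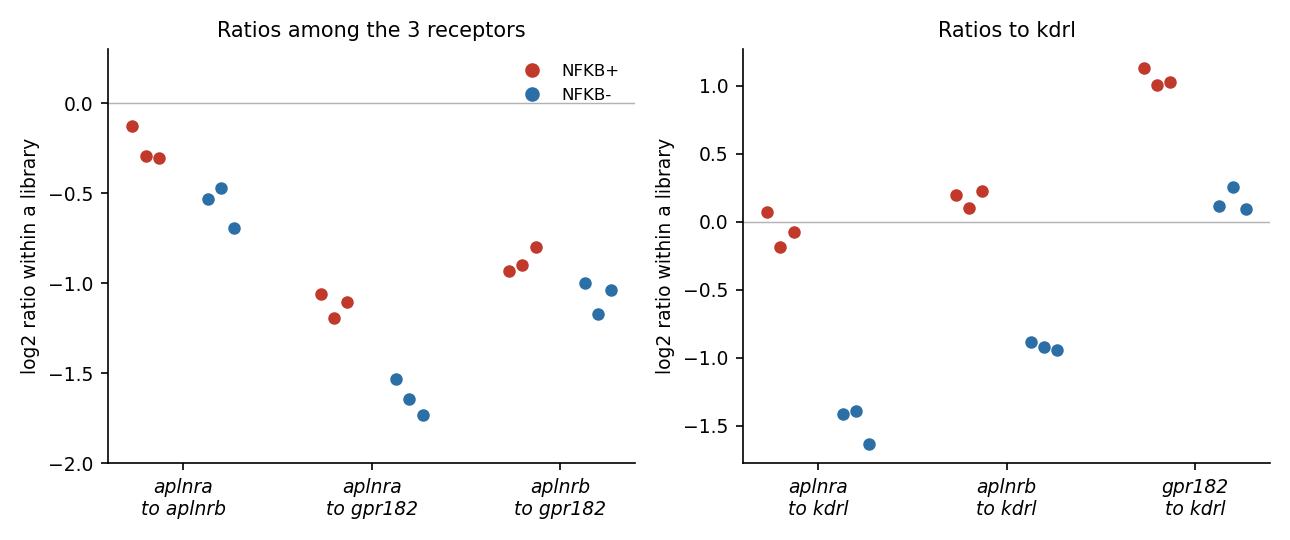
Log2 ratios within each library, among the receptors (left panel) and to kdrl (right panel), with red points for the 3 NFKB+ and blue points for the 3 NFKB- libraries. The height of a ratio also depends on transcript length, so only the shift between sorts is compared; it is 0.32, 0.52 and 0.19 among the receptors and 1.41, 1.09 and 0.90 relative to kdrl.

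The receptors varied little among the NFKB+ libraries and more among the NFKB- libraries. The SD was smaller in NFKB+ than in NFKB- libraries for each of them, as it was for 64.9% of all genes. Among NFKB- libraries, aplnra, aplnrb and gpr182 were highest in library 4 and lowest in library 6. Library 4 lay above the mean of its sort by 0.36 for aplnra, 0.33 for aplnrb, 0.26 for gpr182 and 0.29 for kdrl. The same order of libraries was seen for 11 of 15 pan-endothelial genes, for 38.6% of the genes higher in NFKB+ cells and for 23.5% of all genes. Globin transcripts, as a share of the normalized reads in the table, ran the other way, at 36.1%, 39.8% and 41.8% in libraries 4, 5 and 6. In NFKB+ libraries 1, 2 and 3 they made up 6.72%, 7.51% and 7.87%. The part of blood transcripts in the receptor differences was not tested. Under scaling to the same total without globins, the differences were 2.50 for aplnra, 2.18 for aplnrb and 1.98 for gpr182.

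Of the apelin pathway besides its receptors, 36 signal transduction genes were listed and 8 analysed. In NFKB+ cells 7 of the 8 were higher, where 54.5% of all genes analysed were called higher and 45.5% lower. The 8 had a median log2 difference of 1.37 against 1.08 for the whole table. No gene analysed differed less than 2-fold, so the table's median depends on the shares called higher and lower. Among the 1347 higher genes, ordered by size, arrb1 was number 73, gna12a 390, gnb4b 708, gnai2b 804, rgs12b 809, arrb2b 965 and gng12a 1101. The ligand genes apln and apela were not analysed here. The beta-arrestin gene arrb2b, whose product desensitizes and internalizes receptors, was at 39053, 40386 and 39722 normalized reads in NFKB+ libraries, against 18331, 15789 and 16005 in NFKB- libraries, which is 2.38-fold higher. Its relative arrb1 had few reads, with 102, 33 and 63 recovered reads in NFKB+ libraries, against 12, 3 and 12 in NFKB- libraries. The arrb1 difference of 2.61 was 1.98 without NFKB- library 5, 1.91 with a pseudocount of 8 and 3.44 with estimated library weights.

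The inhibitory G protein gene gnai2b, of the class that apelin receptors use, was 2.58-fold higher, at 8.99 ± 0.19 in NFKB+ and 7.63 ± 0.49 in NFKB- libraries (SD, n = 3). The call of gnai2b ended under median ratio scaling, where its limma adjusted p was 0.067, the highest of its alternatives, which began at 7.31e-06. The G protein alpha gene gna12a was 3.37-fold higher. The beta subunit gene gnb4b and the gamma subunit gene gng12a were 2.74- and 2.24-fold higher. Among regulators that shorten G protein signals, rgs12b was 2.57-fold higher in NFKB+ cells. The exception was rgs18, known in mammals from platelets, at 10, 1 and 19 recovered reads in NFKB+ libraries, against 36, 37 and 49 in NFKB- libraries. Its difference of -2.66 was -1.83 without NFKB+ library 2 and -1.75 with a pseudocount of 8.

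Genes of the chemokine axis around Gpr182 went both ways. Of 8 analysed, from a list of 27, the 4 chemokine genes were higher and the 4 receptor genes lower in NFKB+ cells. The median log2 difference of the 8 was 0.01. Among all genes analysed, 54.5% were called higher and 45.5% lower. The receptor gene gpr182, not counted among the 8, was higher. A split by role was not tested. The gene cxcl12b, one of the duplicates of the ligand CXCL12, was at 20445, 21639 and 22338 normalized reads in NFKB+ libraries, against 5248, 4975 and 3998 in NFKB- libraries. This was a 4.56-fold excess (limma adjusted p = 1.95e-10), beside 4.28-fold for gpr182. Its duplicate cxcl12a was 3.38-fold higher, and cxcl18b and cxcl20 were 5.01- and 3.63-fold higher. A signalling receptor gene of CXCL12, cxcr4b, was 4.80-fold lower in NFKB+ cells, at 10.76 ± 0.23 in NFKB+ and 13.02 ± 0.16 in NFKB- libraries (SD, n = 3). Its duplicate cxcr4a was listed but was not among the genes analysed. The leukocyte chemokine receptor genes cxcr3.2, cxcr3.3 and ccr9a were 5.10-, 3.33- and 8.92-fold lower. In the same libraries the 18 myeloid markers analysed summed to 0.146% to 0.196% of the table's reads in NFKB+ and 1.25% to 1.48% in NFKB- libraries, and none was at 0 in any library. Their part in the lower receptor genes was not tested.

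In the adrenomedullin axis, 9 genes were listed and 4 analysed, of which 3 were higher in NFKB+ cells. Of all genes analysed, 54.5% were called higher. The gene ramp2, whose product joins the calcitonin receptor-like receptor to form an adrenomedullin receptor, was at 30000, 33897 and 34826 normalized reads in NFKB+ libraries, against 9781, 7969 and 8032 in NFKB- libraries. It was 3.84-fold higher. The partner receptor gene calcrla was 2.26-fold higher and the ligand gene adma 2.65-fold higher. The related ligand gene adm2a was 2.84-fold lower, at 5.15 ± 0.55 in NFKB+ and 6.65 ± 0.44 in NFKB- libraries (SD, n = 3).

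Of 84 other G protein-coupled receptor genes of vessels listed, 24 were analysed. Among the G protein-coupled receptors of the lists, aplnra, aplnrb and gpr182 had the 3 largest excesses in NFKB+ cells of 32 analysed. This is a description of an order among genes chosen with earlier results known. The 95% intervals of gpr182 and of the next receptor, lpar1, overlapped almost fully, at 1.83 to 2.36 and 1.80 to 2.34. Of the 29 other receptors 16 were higher and 13 lower, with a median log2 difference of 1.17. For all genes analysed, 54.5% were called higher and 45.5% lower, with a median of 1.08. The lysophosphatidic acid receptor gene lpar1 was 4.20-fold higher, the angiotensin receptor gene agtr2 4.01-fold higher and the endothelin receptor gene ednraa 3.78-fold higher. The adhesion receptor gene adgra2, needed for brain vessel growth, was 3.39-fold higher, and adgrl4, an adhesion receptor of endothelium, 3.07-fold higher. Of the other adhesion receptors analysed, adgrg6 was 2.62-fold higher and adgrg1 2.77-fold lower. The sphingosine 1-phosphate receptor genes went both ways, with s1pr5a and s1pr1 3.19- and 2.71-fold higher and s1pr5b 6.10-fold lower. The lysophosphatidic acid receptors did so too, with lpar2a, lpar2b and lpar6a 2.96-, 2.94- and 3.00-fold higher and lpar5a 6.39-fold lower. At the other end stood gpr183a and gpr183b, receptors of oxysterols on immune cells, at 22.6- and 12.1-fold lower. Recovered reads of gpr183a were 92, 72 and 84 in NFKB+ libraries, against 1555, 1688 and 1717 in NFKB- libraries. The prostaglandin receptor genes ptger4a and ptger4b were 5.53- and 2.28-fold lower. The adenosine receptor genes went both ways, with adora2aa 3.74-fold lower and adora2b 2.73-fold higher. The genes smo, fzd7a and fzd6 were 2.77-, 2.48- and 2.18-fold higher, and fzd9b was 2.705-fold lower. The call of fzd6 ended under median ratio scaling (limma adjusted p = 0.092).

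**Figure D3:**
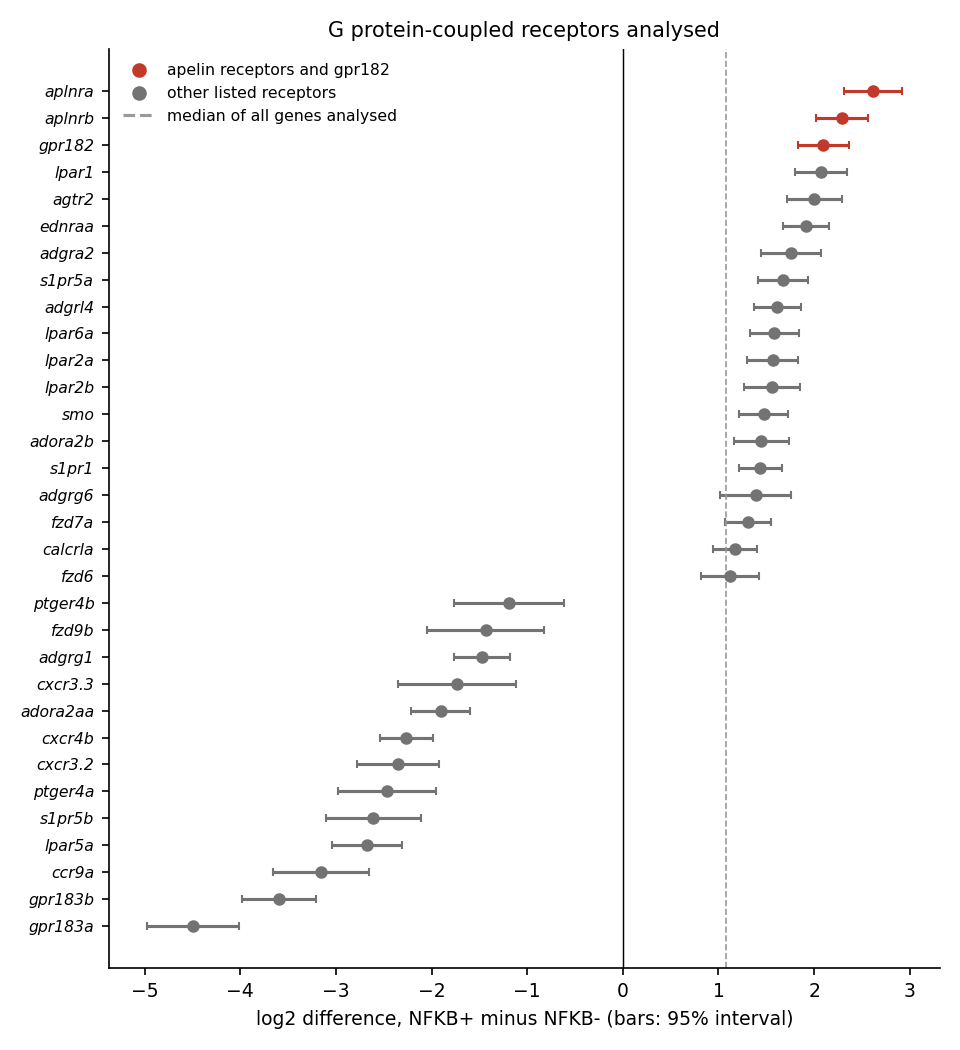
Log2 difference (NFKB+ minus NFKB-) of the 32 G protein-coupled receptor genes of the lists that were analysed, with 95% intervals from limma over 3 libraries per sort. Red points are aplnra, aplnrb and gpr182, at 2.61, 2.29 and 2.098; the dashed line is the median of all genes analysed, 1.08, and the gap around 0 comes from the authors' 2-fold limit.

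Genes most like each receptor were found by the root mean square (RMS) distance between their log2 values over the 6 libraries, each gene centred on its own mean. For aplnra these were mafa, a transcription factor gene, glula, which encodes glutamine synthetase, and the aquaporin gene aqp8a.1, at RMS distances of 0.08, 0.11 and 0.12. The gene mafa was at 12.55 ± 0.078 in NFKB+ and 9.86 ± 0.23 in NFKB- libraries (SD, n = 3), a difference of 2.69. For aplnrb they were tpte, a transmembrane phosphatase gene, the vesicle transport gene rab11bb and the adhesion gene chl1a, at 0.05, 0.07 and 0.07. For gpr182 they were lpar1, smad3a, which transduces TGF-beta signals, and etv2, the ETS factor that specifies angioblasts, at 0.06, 0.06 and 0.07. The etv2 transcript was at 57712, 55227 and 54731 normalized reads in NFKB+ libraries, against 17117, 14036 and 12021 in NFKB- libraries. The distance also reflects the size of the difference between the sorts. The genes nearest to aplnra had differences of 2.69, 2.68 and 2.61, beside 2.61 for aplnra itself. The receptors were not each other's nearest genes. In likeness to aplnra, among the 2471 genes analysed, aplnrb came number 20 and gpr182 number 66. In likeness to aplnrb, gpr182 came number 19 and aplnra number 59. In likeness to gpr182, aplnrb came number 25 and aplnra number 269. All these genes share the same 6 libraries and the same scaling.

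The receptors stood at the upper end of the general endothelial markers and inside the range of venous and lymphatic markers. Of 26 pan-endothelial genes listed 15 were analysed, and each of these was higher in NFKB+ cells, at a median of 1.504. Those with the highest mean log2 values were fli1a, tie1, clec14a and cdh5, which encode an ETS factor, an angiopoietin receptor relative, a lectin and the junction cadherin of endothelium, at 2.48-, 3.52-, 2.33- and 2.97-fold higher. Among the 15, egfl7, which encodes a secreted vessel protein, had a larger difference than gpr182, at 2.14, and none had one larger than aplnra or aplnrb. Of 8 other angioblast genes analysed, 6 were higher and 2 lower, with a median of 1.47. Of the higher ones, etv2, egfl7, sox7, fli1a and fli1b were also counted as pan-endothelial, which leaves hhex, at 1.46. The lower ones, tal1 and gfi1aa, at -1.32 and -1.01, also act in blood cells. Of 17 venous and lymphatic genes listed 13 were analysed, each of them higher, at a median of 2.31. In this list 4 genes exceeded aplnra, 7 exceeded aplnrb and 8 exceeded gpr182. The largest was tfec, a transcription factor gene, at 2.93, and the VEGF-C receptor gene flt4 lay next to aplnra, at 2.68. The scavenger receptor gene stab2, the endocytic adaptor gene dab2 and the neuropilin gene nrp2b were at 2.46, 2.31 and 2.71. Of 14 arterial genes only tbx20 was analysed, at 1.44. Genes outside the authors' limits are not analysed here, so these counts cover a selected part of each list.

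Most of the analysed markers of blood moved the other way in these libraries. None of the 17 erythroid or 18 myeloid genes analysed was higher in NFKB+ cells, and the medians were -2.76 and -3.28. Of 11 hemogenic and progenitor genes analysed, 10 were lower, with a median of -2.15, and itga2b was at 0 in a library. The 11 genes summed to 0.271% to 0.312% of the table's reads in NFKB+ and 0.331% to 0.393% in NFKB- libraries. The higher one, lmo4a, had mean normalized reads of 19482 in NFKB+ and 8095.5 in NFKB- libraries. The lysozyme gene lyz was 25.5-fold lower and the globin gene hbae1 7.89-fold lower. Epidermal genes were 5 higher and 1 lower, with a median of 1.76, and summed to 0.0306% to 0.0627% of the table's reads in NFKB+ and 0.00876% to 0.0160% in NFKB- libraries. Fibroblast, mural and sclerotome genes were 4 higher and 1 lower, with a median of 2.06. They summed to 0.242% to 0.266% in NFKB+ and 0.0363% to 0.0669% in NFKB- libraries. The epidermal gene pou2f3 was at 0 in a library. Markers of muscle (2 analysed), neural tissue (5), pronephros (4) and notochord and floor plate (4) had medians of 1.06, 1.02, -1.69 and -0.29. Of 14 muscle genes listed, only mef2ca and mef2d were analysed, at 2.17- and 2.01-fold higher. They summed to 0.0661% to 0.0708% in NFKB+ and 0.0187% to 0.0284% in NFKB- libraries. Of the neural genes 3 were higher and 2 lower. Neural markers summed to 0.183% to 0.197% in NFKB+ and 0.0529% to 0.0835% in NFKB- libraries. The higher gene tubb5 had mean normalized reads of 10752 and 5352.5, against 70 and 325 for the lower gene sox1a. The pronephros and the notochord and floor plate lists had negative medians but larger sums in NFKB+ libraries. Of the pronephros genes 1 was higher in NFKB+ libraries and 3 were lower. The higher one, atp1b1a, had mean normalized reads of 44583 in NFKB+ and 14843 in NFKB- libraries, against 983 and 5331 for slc20a1a. Of the notochord and floor plate genes 2 were higher and 2 lower. The higher gene matn4 had mean normalized reads of 5409 and 1808, against 78 and 248 for foxa2. Pronephros markers summed to 0.453% to 0.481% in NFKB+ and 0.149% to 0.158% in NFKB- libraries. Notochord and floor plate markers summed to 0.0613% to 0.0713% in NFKB+ and 0.0123% to 0.0300% in NFKB- libraries. The part of cells of these types in the receptor differences was not tested.

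**Figure D4:**
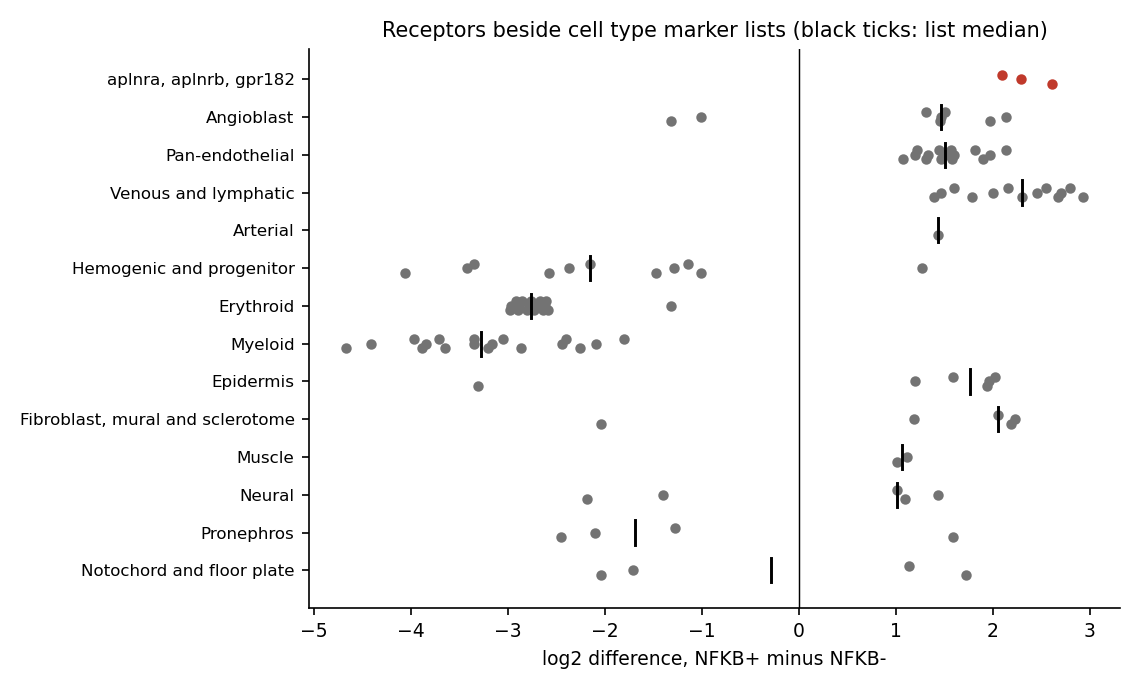
Log2 difference (NFKB+ minus NFKB-) of aplnra, aplnrb and gpr182 (red) and of each analysed gene of 13 marker lists (grey), with list medians as black ticks. The receptors, at 2.098 to 2.61, lie above the pan-endothelial median of 1.504 and around the venous and lymphatic median of 2.31, while erythroid and myeloid genes lie below 0.

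**Figure D5:**
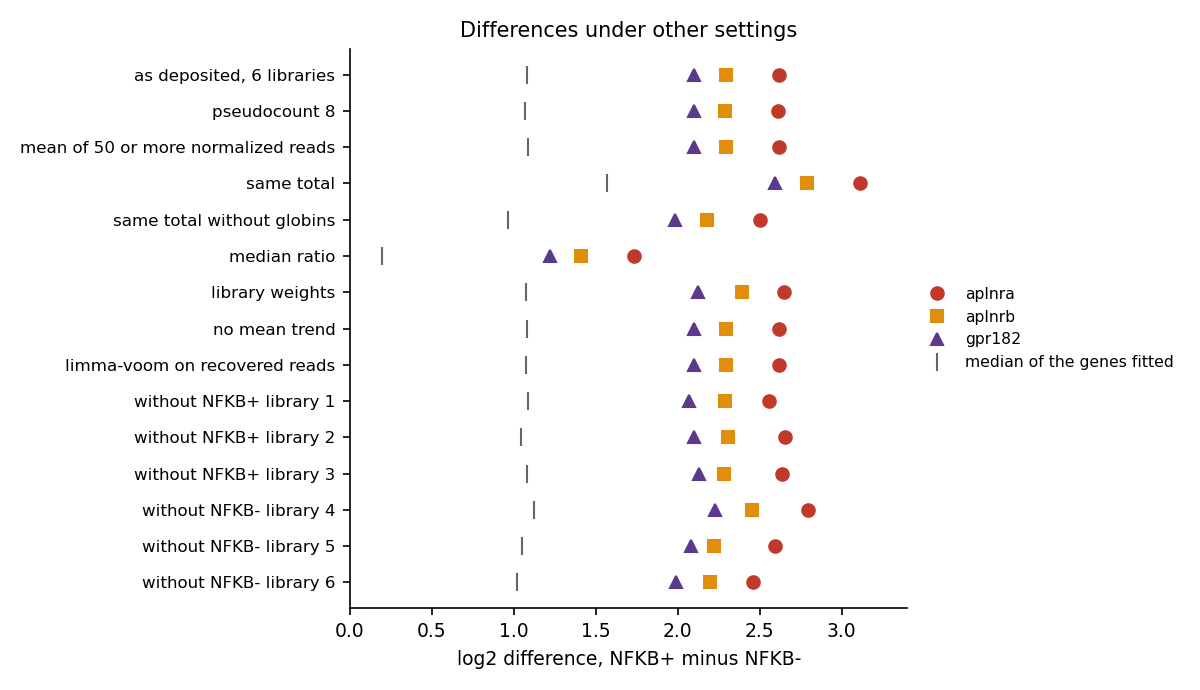
Log2 difference (NFKB+ minus NFKB-) of each receptor under the scaling as deposited and 14 other settings, with grey ticks for the median of the genes fitted. The order aplnra, aplnrb, gpr182 is seen in each setting shown, and the smallest differences, 1.73, 1.41 and 1.22, come with median ratio scaling. Rescaling moves the 3 genes almost equally, and dropping the mean trend or genes with few reads leaves their differences as they were. Those settings could therefore not change the order.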

How the data were processed

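Total RNA of 3 NFKB+ and 3 NFKB- sorts was sequenced from low-input libraries, per the labels' protocols; strand is not stated, so antisense reads are not told apart. The tools cutadapt, STAR, HTSeq and DESeq2 and the build danRer10 are listed, without versions or roles, per the submitters' processing notes. The authors deposited log2 values per library, an average log2 expression and, for their own comparison, a log2 fold change, a signed fold score and raw and adjusted p-values, per the file headers. Raised back from log2 and less the 1 added, values under 1000 were whole multiples of a fixed step in each library (100% within 0.1 read), so reads were recovered. Of 2475 rows, 4 with repeated names and inconsistent columns were left out. Columns give the sort and a running number, so libraries are called 1 to 6.

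The comparison used limma 3.58.1 under R 4.3.3 (lmFit, eBayes with a mean trend) over 2471 genes on log2(normalized reads + 1). It had no covariates and no filter on low values, and was checked on simulated data. There, 100 genes each were changed by 1 and by 2 log2 units among 2471. That check does not cover a table in which each gene had been selected as different. P-values are two-sided, adjusted by Benjamini-Hochberg over all genes, at a threshold of 0.05. A difference is NFKB+ minus NFKB- on the log2 scale, and a fold is its antilog. The labels call the samples biological replicates without naming separate pools, so p-values may measure technical spread only.

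The receptors, 5 pathway lists and 13 marker lists were chosen with earlier results of these data known, and no list was tested. The text names genes analysed from the pathway lists, the 3 genes most like each receptor and up to 4 genes per marker list by mean level. The genes egfl7, hhex, tal1, gfi1aa, tfec, itga2b and pou2f3 were named after their values were seen. Apart from the choice of marker genes by mean level and the sums over lists, levels were not compared between genes. Transcript lengths were not used here.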

Additional observations from a re-analysis of the deposited data

How the results depend on the processing

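The 3 receptors kept their direction and stayed past the threshold of 0.05 under the 14 alternatives run, with adjusted p-values of at most 3.11e-05. Because the table had been selected on these libraries, this says nothing of stability. Without 1 library at a time, differences ranged from 2.46 to 2.80 for aplnra, 2.20 to 2.45 for aplnrb and 1.99 to 2.23 for gpr182; their shifts relative to each other from 0.26 to 0.37 (aplnra to aplnrb), 0.47 to 0.57 (aplnra to gpr182) and 0.14 to 0.23 (aplnrb to gpr182). Shifts relative to kdrl, an addition made after seeing the data, ranged from 0.86 to 1.48 over the receptors and settings. Higher and lower genes past the threshold numbered 1343 to 1347 and 1122 to 1124 without 1 library, and 920 and 1124 under median ratio scaling, against 1347 and 1124 as deposited. Scaling to the same total shifted the median of all genes by 0.49, and gave 3.11, 2.79 and 2.59 for aplnra, aplnrb and gpr182. Of 1356 values of 97 other genes, picked from the lists or by likeness, 10 lost their call and none changed direction. Not all of the 97 are named above. All 10 calls were lost under median ratio scaling, for col1a2, fzd6, gnai2b, isl2a, krt17, mef2d, nova2, ppl, spon1b and tubb5. That scaling moved the median of all genes by -0.88, and the cause of the lost calls was not tested. No paired analysis was possible because no column name holds a replicate number of the labels. Fits with edgeR and DESeq2, planned only where the deposited unit allows a count test, were not run on these log2 values; limma-voom on the recovered reads gave 2.62, 2.29 and 2.099.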

Other observations

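The genes next to each receptor in RefSeq's order of protein-coding genes (assembly GRCz12tu, used for gene order only) were looked up after the data had been seen. On each side of aplnra, aplnrb and gpr182 the nearest 3 genes were taken, 18 in all. The duplicates share a neighbour family, since tbc1d10aa lies beside aplnra and tbc1d10ab beside aplnrb. Of the 18 neighbours 1 was among the genes analysed, where 9% of all RefSeq protein-coding genes were. This was agap2, which encodes a GTPase-activating protein and lies near gpr182. It was 5.43-fold lower in NFKB+ cells, with a log2 difference of -2.44 (limma adjusted p = 1.37e-08), opposite in direction to gpr182. No neighbour of aplnra or aplnrb was among them.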
